A study of Mus musculus with 8 samples.

Results

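Fatty acid oxidation and the targets of the nuclear receptor PPARalpha were examined in mouse liver through 42 genes out of 19560 measured on the arrays. The 42 were chosen by name from the pathway, with earlier results of these data known. A gene's value was the median over the probe sets that carry its symbol alone, and all 42 genes had at least 1. In 4 mice, called Tak1/Casp8 here, liver parenchymal cells (LPC) carried a double knockout of TAK1 and caspase 8. In the other 4, called Tak1/Rip3, TAK1 was knocked out in LPC on a Rip3-/- background. All 8 were males aged 6 weeks, with 1 array of liver RNA each, and all lacked TAK1 in LPC, so neither group is a wild type. The comparison asks which genes the apoptotic and the necrotic pathway regulate differently. No source used here names the Cre line that deletes in LPC, other liver cells keep Casp8 and Map3k7 (the gene of TAK1), and the Rip3 knockout is not limited to LPC by its label. Every difference below is Tak1/Casp8 minus Tak1/Rip3 on the log2 scale of the deposited RMA intensities.

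PPARalpha is switched on by fatty acids, mainly in fasting, and pairs with RXR on DNA elements made of repeated AGGTCA motifs. Its targets carry fatty acids into the hepatocyte, pass them through the carnitine shuttle into mitochondria for beta-oxidation, oxidise very long chains in peroxisomes, and hydroxylate the omega end of the chain through Cyp4a enzymes. Acetyl-CoA from beta-oxidation feeds the synthesis of ketone bodies, which the liver exports and does not itself burn.

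The targeted genes matched the labels. Casp8 was lower in the Tak1/Casp8 livers (-1.31 ± 0.10 SE, limma adjusted p = 0.000123) and Ripk3, the Rip3 gene, was higher there (0.98 ± 0.17 SE, limma adjusted p = 0.00782), while Map3k7 differed by -0.08 ± 0.10 SE (limma adjusted p = 0.695). The hepatocyte markers Alb, Ttr, Apoa1, Apob, Tat, Cps1, Hnf4a and Asgr1 had a mean level of 13.19 to 13.26 in the Tak1/Casp8 livers and 13.14 to 13.24 in the Tak1/Rip3 livers, and 0 of the 8 passed limma (1 at an unadjusted p under 0.05, and in an unmoderated test with unequal variances 3 at an unadjusted p under 0.05 and 0 after adjustment). Tak1/Casp8 replicate 4 and Tak1/Rip3 replicate 2 had the lowest mean correlation with their own group (0.985 and 0.987).

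Of the 42 genes, 10 fell in the Tak1/Casp8 livers and 0 rose at a limma adjusted p under 0.05, which is 23.8% of them, against 6.69% of all 19560 genes called in either direction (4.05% lower and 2.64% higher). At an unadjusted p under 0.05, 18 were lower and 1 was higher (45.2% of the 42), against 2310 lower and 1820 higher of all genes (21.1%). Because the 42 were chosen with earlier results of these data known, these shares are not an independent test. The 10 were the omega hydroxylases Cyp4a10, Cyp4a14 and Cyp4a31, the thioesterases Acot1 and Acot2, the octanoyltransferase Crot, the dehydrogenase Acadl, the ketone enzyme Bdh1, the pyruvate dehydrogenase kinase Pdk4 and the uncoupling protein Ucp2. The differences of 36 of the 42 were below 0, against 9272 of all 19560, and the median difference was -0.28, against 0.01 over all genes. In 10 of the 42 every Tak1/Casp8 array lay below every Tak1/Rip3 array and in 1, Acaa1a, above, where all genes did so in 8.3% and 6.33%. Bulk liver RNA cannot tell fewer cells of a type from less RNA per cell.

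**Figure D1:**
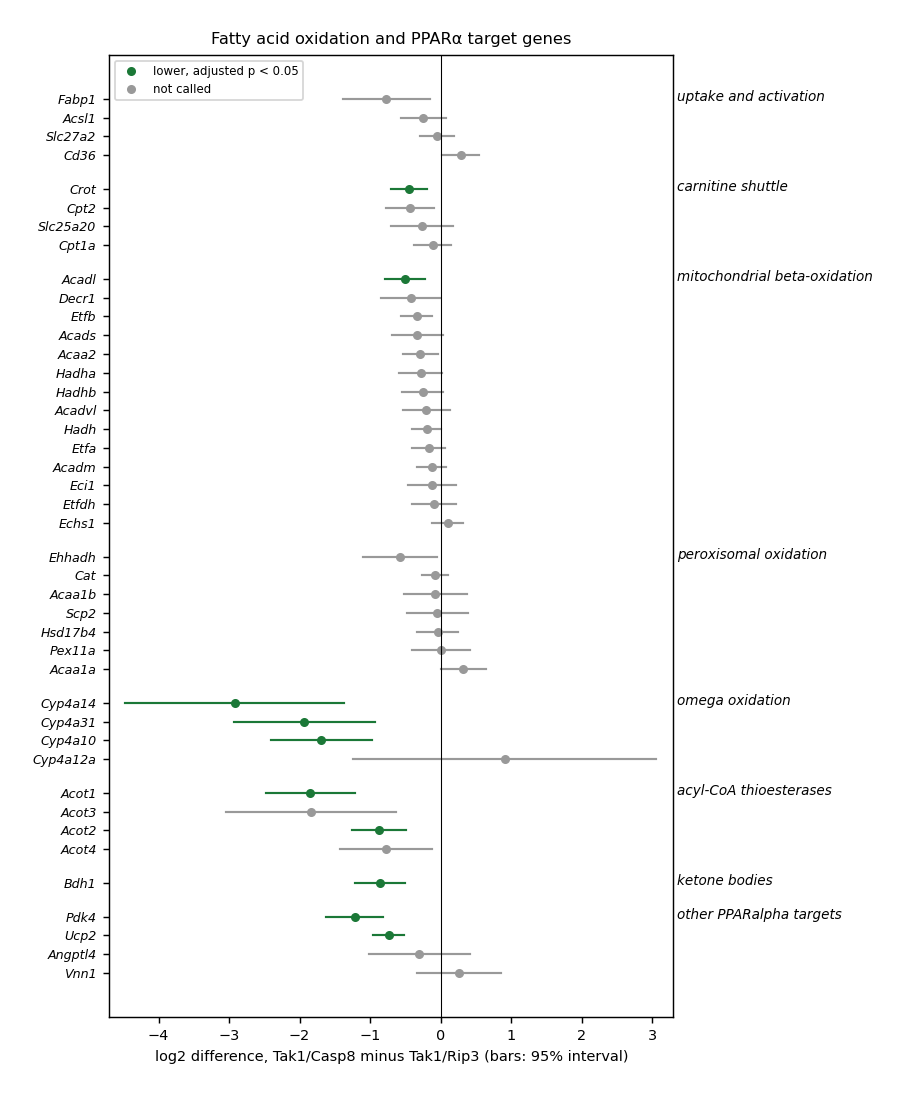
Log2 difference (Tak1/Casp8 minus Tak1/Rip3, x axis) of each of the 42 genes, grouped by function, with 95% intervals from limma on 4 arrays per group. Green points passed the test, and the 10 that did lie left of 0, with Cyp4a14 furthest at -2.92.

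The count of 10 depended on single arrays. It was 6 without Tak1/Casp8 replicate 1, 2 or 3 (3.15%, 2.48% and 2.82% of all genes were called lower in these fits), and 6 without Tak1/Rip3 replicate 3 or 4 (2.8% and 2.42%). It was 7 without Tak1/Rip3 replicate 1 (2.24%) and 9 without Tak1/Rip3 replicate 2 (4.17%). It was 16 without Tak1/Casp8 replicate 4 (4.4% of all genes were called lower there), and 15 without the pair least like their groups (4.86% of all genes). The other array of that pair, Tak1/Rip3 replicate 2, was the lowest of its group in 20 of the 42 genes (27.6% of all genes). It was the highest in 5 (36.7% of all genes). Leaving it out raises the Tak1/Rip3 mean of those 20 genes, so the 15 are not a neutral check. Cyp4a10, Acot1, Acot2, Bdh1, Pdk4 and Ucp2 passed in each of the 8 fits that left out 1 array. The unmoderated test, which takes the spread of each gene and group alone, called 0 of the 42 (12 at an unadjusted p under 0.05), and 115 of all genes (3508 at an unadjusted p under 0.05). With the arrays shifted to 1 median, which set the median of all genes at 0.08, 8 of the 42 were called and 33 were below 0, and among all calls 42.4% were falls in Tak1/Casp8, against 60.6% without the shift.

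Tak1/Casp8 replicate 4 stood apart within its group. It held the highest of the 4 Tak1/Casp8 values in 35 of the 42 genes, whereas over all genes it was the highest in 42.0%. Leaving it out therefore lowers the Tak1/Casp8 mean of those 35 genes. Averaged over the 42 genes, each taken from its own mean over the 8 arrays, the Tak1/Casp8 arrays stood at -0.43, -0.21, -0.57 and 0.28, against 0.15, 0.11, 0.34 and 0.33 for the Tak1/Rip3 arrays. Replicate 4 thus lay within the range of the Tak1/Rip3 livers and the other 3 arrays lay below it. Over the 10 genes that fell, the same mean was -0.86, -0.80, -1.03 and 0.08 in the Tak1/Casp8 livers and 0.58, 0.30, 0.88 and 0.85 in the Tak1/Rip3 livers. These 10 were picked by their difference between these same arrays, so a gap between the groups is built into this mean.

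**Figure D2:**
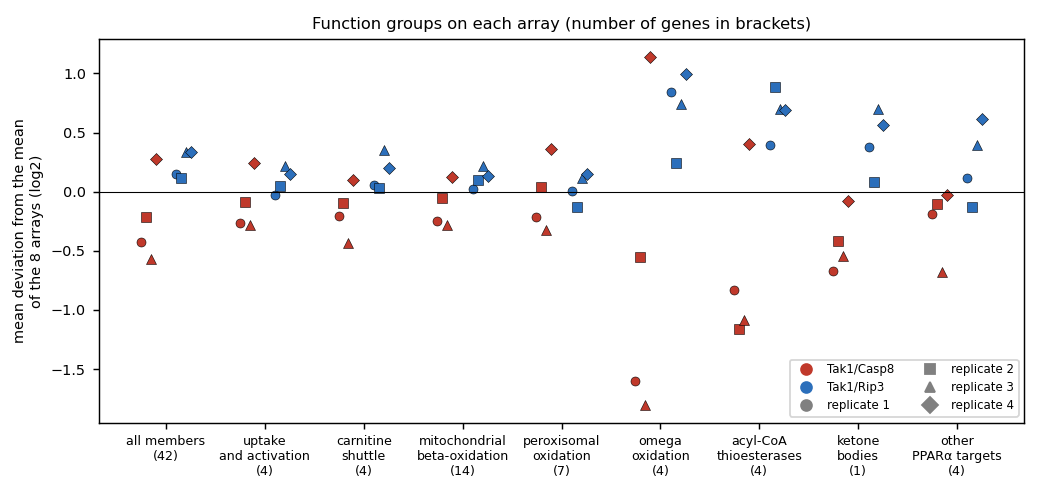
Mean deviation (log2) of each function group's genes from their means over the 8 arrays, 1 point per array, Tak1/Casp8 in red left of Tak1/Rip3 in blue, with a symbol for each replicate. Tak1/Casp8 replicate 4 (red diamonds) is the highest of its group in all 8 functions plotted and in the mean over all 42 genes (0.28).

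Genes of the circadian clock were read beside these values, since PPARalpha targets follow the time of day and feeding. Npas2, an activator of the clock, had 7.82, 8.19, 8.54 and 6.29 in the Tak1/Casp8 livers, against 8.93, 7.18, 9.02 and 9.51 in the Tak1/Rip3 livers. Tak1/Casp8 replicate 4 and Tak1/Rip3 replicate 2 were the lowest of their groups. Arntl, the partner of Npas2, had 8.29, 8.55, 8.74 and 7.09 in the Tak1/Casp8 livers, against 8.81, 7.78, 8.84 and 8.68 in the Tak1/Rip3 livers, with the same arrays lowest. The clock output factor Dbp had 9.77, 9.18, 9.45 and 10.23 in the Tak1/Casp8 livers, against 9.30, 10.45, 9.28 and 8.71 in the Tak1/Rip3 livers, and the same arrays were the highest of their groups. These 3 of the 13 clock genes are shown because both arrays were at the same extreme in them. Both arrays were the highest of their groups in 4 of the 13 (Dbp, Tef, Nr1d2 and Per3) and the lowest in 2. In Nr1d1 and Cry1 they were at opposite ends, and in the other 5 Tak1/Casp8 replicate 4 was at neither end. Tak1/Rip3 replicate 2 was at one end or the other in all 13. Over all genes Tak1/Casp8 replicate 4 was the highest of its group in 42.0% and the lowest in 23.4%. For Tak1/Rip3 replicate 2 these shares were 36.7% and 27.6%. Between the groups 0 of 13 clock genes passed limma (0 at an unadjusted p under 0.05, and 0 in the unmoderated test). Of 4 feeding-state genes, Pck1, G6pc, Igfbp1 and Srebf1, 0 passed, with Pck1 (0.49) and Srebf1 (0.49) higher at an unadjusted p under 0.05, and 0 in the unmoderated test after adjustment. The part of time of day and feeding in the results was not tested.

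Promoters of 3 genes are printed because they show where AGGTCA repeats do and do not occur in these genes: Fabp1 holds the only spaced repeat found, and Acot1 and Pdk4 have the largest differences among the genes that passed limma and have a promoter in the RefSeq table (GRCm38.p6). Each is the 250 bases before the start site, 5′ to 3′ on the gene's strand, with matches to AGGTCA or to the repeat in capitals (they read TGACCT where the match is on the opposite strand).
Fabp1 (chr6:71199629-71199878, + strand): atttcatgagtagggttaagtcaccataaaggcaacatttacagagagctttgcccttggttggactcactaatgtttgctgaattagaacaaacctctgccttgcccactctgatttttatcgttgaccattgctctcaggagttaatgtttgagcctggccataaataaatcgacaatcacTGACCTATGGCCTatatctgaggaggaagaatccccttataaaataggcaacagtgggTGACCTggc
Acot1 (chr12:84009252-84009501, + strand): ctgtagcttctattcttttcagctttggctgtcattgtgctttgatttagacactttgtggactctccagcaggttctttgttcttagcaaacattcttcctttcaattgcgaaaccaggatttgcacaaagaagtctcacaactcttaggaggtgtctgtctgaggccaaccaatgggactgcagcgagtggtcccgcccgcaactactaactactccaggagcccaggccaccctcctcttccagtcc
Pdk4 (chr6:5496279-5496528, - strand): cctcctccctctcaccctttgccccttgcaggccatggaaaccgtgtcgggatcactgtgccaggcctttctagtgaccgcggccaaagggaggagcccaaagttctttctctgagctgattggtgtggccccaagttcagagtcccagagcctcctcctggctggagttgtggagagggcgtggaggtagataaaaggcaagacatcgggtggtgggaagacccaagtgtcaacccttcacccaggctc
Of the 42 genes 33 had a promoter in the table, 7 of them among the 10 that fell. The motifs were searched on both strands. The strict repeat, AGGTCA and again AGGTCA after 1 base of any kind, was in 0 of the 33 and in 0.0335% of all 32851 promoters of this length. The looser repeat, AGGNCA and again AGGNCA after 1 base of any kind (N stands for any base), includes the strict one and was in 1 (Fabp1, 67 to 55 bases before the start) and in 0.338% of all. The single motif AGGTCA, also part of the strict repeat, was in 10 of the 33, which were 0 of the 7 genes that fell and 10 of the other 26, and in 14.0% of all. No match means only that these letters are not within this window.

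Of 4 omega hydroxylases 3 fell, and the median difference of the 4 was -1.81. Cyp4a14, a fatty acid omega hydroxylase of the endoplasmic reticulum, had 7.95, 8.79, 7.46 and 11.40 in the Tak1/Casp8 livers, against 11.79, 11.11, 12.19 and 12.18 in the Tak1/Rip3 livers. It fell 7.55-fold (-2.92 ± 0.70 SE, limma adjusted p = 0.0337), and Tak1/Casp8 replicate 4 lay above the lowest Tak1/Rip3 array. Without that replicate the difference was -3.75 (limma adjusted p = 0.000413), and with Tak1/Rip3 replicate 2 left out as well it was -3.99. The call was lost without Tak1/Casp8 replicate 1, 2 or 3 or Tak1/Rip3 replicate 1, 3 or 4 (limma adjusted p = 0.0788 to 0.0931), and with eBayes trend and robust settings (0.0844). All 13 of its probe sets were lower in the Tak1/Casp8 livers, by -3.25 to -1.58.

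Cyp4a10, a close relative and a standard marker of PPARalpha activity, had 11.05, 10.96, 10.95 and 12.54 in the Tak1/Casp8 livers, against 12.94, 12.78, 13.40 and 13.14 in the Tak1/Rip3 livers. It fell 3.23-fold (-1.69 ± 0.32 SE, limma adjusted p = 0.0126), the groups did not overlap, and 3 Tak1/Casp8 arrays had 10.95 to 11.05 with replicate 4 more than 1 log2 unit above them. Cyp4a31, a neighbour in the same gene cluster on chromosome 4, had 8.55, 8.43, 8.19 and 10.05 in the Tak1/Casp8 livers, against 10.60, 9.68, 11.60 and 11.06 in the Tak1/Rip3 livers. It fell 3.82-fold (-1.93 ± 0.45 SE, limma adjusted p = 0.0306), with replicate 4 again inside the Tak1/Rip3 range, and its call was lost without the same 6 arrays as that of Cyp4a14 (limma adjusted p = 0.0736 to 0.0888) and with eBayes trend and robust settings (0.0525). Cyp4a10, Cyp4a31 and Cyp4a32 have near-identical copies: 13 further probe sets match several of these genes, and all 13 were lower in the Tak1/Casp8 livers (median -1.96), so the share of each copy is uncertain.

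Cyp4a12a, an androgen-dependent omega hydroxylase that makes 20-HETE, behaved differently from the other Cyp4a genes. It had 7.81, 11.36, 7.95 and 12.34 in the Tak1/Casp8 livers, against 9.79, 9.15, 7.52 and 9.37 in the Tak1/Rip3 livers. Replicates 2 and 4 of Tak1/Casp8 were the highest of all 8 arrays, and Tak1/Casp8 replicates 1 and 3 with Tak1/Rip3 replicate 3 were the lowest. The difference of 0.91 ± 0.97 SE (95% interval -1.24 to 3.05, limma adjusted p = 0.649) did not pass.

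**Figure D3:**
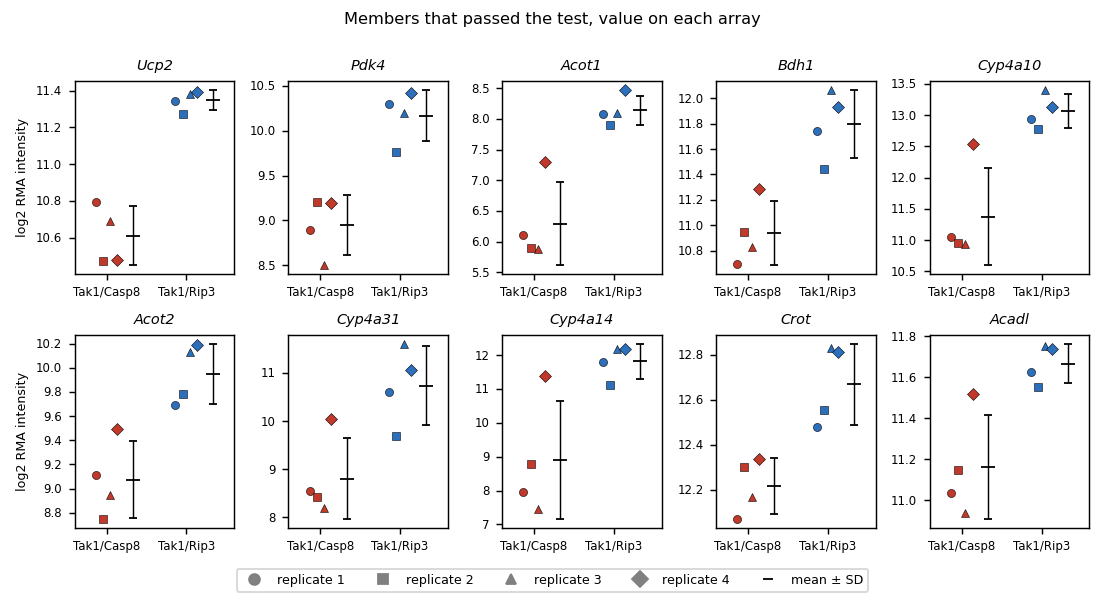
Log2 RMA intensity of the 10 genes that fell, 1 point per array, Tak1/Casp8 in red left of Tak1/Rip3 in blue, with mean ± SD (n = 4) as bars and the replicates by symbol. In 8 of the 10 the groups do not overlap, and in Cyp4a14 and Cyp4a31 Tak1/Casp8 replicate 4 (11.40 and 10.05) reaches the Tak1/Rip3 range. The 10 were picked by their difference between these same arrays, so little overlap is built in. Over all genes, every Tak1/Casp8 array lay below every Tak1/Rip3 array in 8.3%.

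Acyl-CoA thioesterases, which free fatty acids from coenzyme A, were the other group with large differences (2 of 4 fell, median -1.35). Acot1, the cytosolic enzyme, had 6.11, 5.89, 5.87 and 7.30 in the Tak1/Casp8 livers, against 8.09, 7.91, 8.09 and 8.47 in the Tak1/Rip3 livers. It fell 3.59-fold (-1.85 ± 0.29 SE, limma adjusted p = 0.00515), with no overlap. Its mean in the Tak1/Casp8 livers (6.29) lay under the lower quartile of all probe sets on the arrays (6.47 to 6.52), so the size of its fold is uncertain. Acot2, the mitochondrial enzyme, had 9.11, 8.75, 8.95 and 9.50 in the Tak1/Casp8 livers, against 9.69, 9.78, 10.13 and 10.19 in the Tak1/Rip3 livers and fell 1.83-fold (-0.87 ± 0.17 SE, limma adjusted p = 0.0146), from 2 probe sets.

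Acot3, a peroxisomal thioesterase, had 6.26, 5.53, 6.00 and 8.45 in the Tak1/Casp8 livers, against 7.94, 9.21, 8.27 and 8.16 in the Tak1/Rip3 livers. Replicates 1, 2 and 3 of Tak1/Casp8 were below every Tak1/Rip3 array and replicate 4 was among them. The difference was -1.83 ± 0.54 SE (limma adjusted p = 0.0754), and without replicate 4 it was -2.46 (limma adjusted p = 0.00163). With Tak1/Rip3 replicate 2 left out as well it was -2.19 (limma adjusted p = 0.000903). The probe sets of Acot3 did not move together. In Tak1/Casp8 replicate 4 and Tak1/Rip3 replicate 1 the median was a probe set that differed by only -0.09 between the groups. Replicates 1, 2 and 3 of Tak1/Casp8 also lay under the lower quartile of all probe sets (6.47 to 6.52), so the order and size are uncertain. Acot4, another peroxisomal thioesterase, had 8.01, 8.01, 7.66 and 9.16 in the Tak1/Casp8 livers, against 8.66, 9.44, 9.10 and 8.73 in the Tak1/Rip3 livers, a difference of -0.78 ± 0.29 SE (limma adjusted p = 0.160), and -1.09 without replicate 4 (limma adjusted p = 0.00983). Without both arrays Acot4 differed by -0.94 (limma adjusted p = 0.0106). Over the fits without 1 array Acot3 ran from -2.46 to -1.49 and Acot4 from -1.09 to -0.59. The limma adjusted p in these fits reached 0.172 for Acot3 and 0.325 for Acot4. The 4 genes lie beside each other on chromosome 12 and are close copies, so probes of one may also bind the RNA of another.

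**Figure D4:**
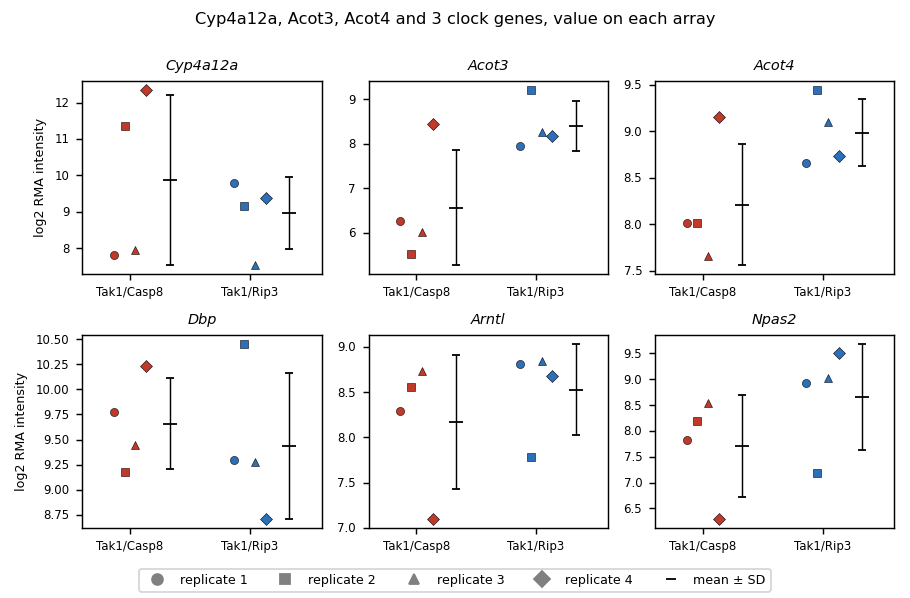
Log2 RMA intensity of Cyp4a12a, Acot3, Acot4 and the clock genes Dbp, Arntl and Npas2, 1 point per array, Tak1/Casp8 in red left of Tak1/Rip3 in blue, with mean ± SD (n = 4) as bars. Tak1/Casp8 replicate 4 (red diamonds) is the highest of its group for Acot3 (8.45) and Acot4 (9.16) and the lowest for Npas2 (6.29) and Arntl (7.09).

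Ketone body metabolism was represented by Bdh1, which turns acetoacetate into beta-hydroxybutyrate in mitochondria. It had 10.69, 10.95, 10.83 and 11.29 in the Tak1/Casp8 livers, against 11.74, 11.44, 12.06 and 11.93 in the Tak1/Rip3 livers, with no overlap, and fell 1.81-fold (-0.86 ± 0.16 SE, limma adjusted p = 0.0120). All 7 of its probe sets were lower in the Tak1/Casp8 livers, by -1.22 to -0.01.

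Of 4 other targets 2 fell and 2 did not pass. Pdk4, the kinase that restrains pyruvate oxidation when fat is burned, had 8.89, 9.20, 8.50 and 9.19 in the Tak1/Casp8 livers, against 10.30, 9.76, 10.20 and 10.41 in the Tak1/Rip3 livers. It fell 2.33-fold (-1.22 ± 0.18 SE, limma adjusted p = 0.00442) with all 11 probe sets lower, although with its brightest probe set alone the difference was -0.78 (limma adjusted p = 0.182). Ucp2, a mitochondrial carrier expressed by macrophages as well as hepatocytes, had 10.79, 10.47, 10.69 and 10.48 in the Tak1/Casp8 livers, against 11.34, 11.27, 11.38 and 11.39 in the Tak1/Rip3 livers and fell 1.67-fold (-0.74 ± 0.10 SE, limma adjusted p = 0.00282), the smallest adjusted p of the 42. Unlike most of the set, it had replicate 4 among its lowest Tak1/Casp8 values. Beside Ucp2, the macrophage markers Clec4f, Cd68, Adgre1, Csf1r, Marco and Timd4 had a mean level of 9.66 to 10.17 in the Tak1/Casp8 livers and 9.68 to 10.09 in the Tak1/Rip3 livers, and 0 of 6 passed limma (1, Cd68 with -0.41, at an unadjusted p under 0.05, and 0 in the unmoderated test). Tak1/Casp8 replicates 2 and 4 were the lowest of their group in Ucp2 and in Cd68, Adgre1, Csf1r and Marco, but not in Clec4f or Timd4. In Cd68 the groups did not overlap. The part of these markers in the result was not tested.

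Angptl4, a secreted inhibitor of lipoprotein lipase, had 9.70, 9.79, 8.53 and 9.57 in the Tak1/Casp8 livers, against 9.16, 9.24, 10.16 and 10.24 in the Tak1/Rip3 livers (-0.30 ± 0.32 SE, limma adjusted p = 0.651). Vnn1, the pantetheinase that is a sensitive PPARalpha target in mouse liver, had 10.76, 11.01, 10.44 and 11.52 in the Tak1/Casp8 livers, against 10.56, 10.11, 10.73 and 11.31 in the Tak1/Rip3 livers (0.26 ± 0.27 SE, limma adjusted p = 0.639). In both genes the groups overlapped widely, with 95% intervals of -1.02 to 0.42 and -0.34 to 0.86.

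In the carnitine shuttle 1 of 4 genes fell. Crot, which moves peroxisomal medium-chain acyl groups onto carnitine, had 12.07, 12.30, 12.17 and 12.34 in the Tak1/Casp8 livers, against 12.48, 12.55, 12.83 and 12.81 in the Tak1/Rip3 livers, with no overlap, and fell 1.37-fold (-0.45 ± 0.11 SE, limma adjusted p = 0.0415). Its call was lost without Tak1/Casp8 replicate 1, 2 or 3 or Tak1/Rip3 replicate 3 or 4 (limma adjusted p = 0.0765 to 0.120), with the arrays shifted to 1 median (0.0886), and with the brightest probe set alone (0.122). Cpt1a, the rate-setting step at the outer mitochondrial membrane, had 11.97, 11.80, 11.51 and 11.77 in the Tak1/Casp8 livers, against 11.69, 11.85, 12.05 and 11.91 in the Tak1/Rip3 livers. Its difference was -0.11 ± 0.12 SE (95% interval -0.38 to 0.15, limma adjusted p = 0.645), and the groups overlapped.

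Cpt2, which rebuilds acyl-CoA inside the mitochondrion, had 10.96, 11.20, 10.82 and 11.52 in the Tak1/Casp8 livers, against 11.72, 11.37, 11.67 and 11.51 in the Tak1/Rip3 livers (-0.44 ± 0.15 SE, limma adjusted p = 0.129). Slc25a20, the carrier that exchanges acylcarnitine for carnitine, had 10.59, 10.73, 10.19 and 11.19 in the Tak1/Casp8 livers, against 10.76, 10.76, 11.27 and 10.98 in the Tak1/Rip3 livers (-0.27 ± 0.20 SE, limma adjusted p = 0.492). In both, Tak1/Casp8 replicate 3 was the lowest of the 8 arrays and replicate 4 the highest of its group, and without replicate 4 Cpt2 differed by -0.57 (limma adjusted p = 0.0283). With Tak1/Rip3 replicate 2, the lowest of its group for Cpt2, left out too, Cpt2 differed by -0.64 (limma adjusted p = 0.0205). Over the fits without 1 array Cpt2 ran from -0.57 to -0.34, with a limma adjusted p of up to 0.284.

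Of 14 genes of mitochondrial beta-oxidation 1 fell (7.14%, near the 6.69% of all genes), 13 of the 14 differences were below 0, and the median was -0.23. Acadl, the long-chain acyl-CoA dehydrogenase, had 11.04, 11.15, 10.94 and 11.52 in the Tak1/Casp8 livers, against 11.62, 11.55, 11.75 and 11.73 in the Tak1/Rip3 livers, with no overlap, and fell 1.42-fold (-0.50 ± 0.13 SE, limma adjusted p = 0.0439). Its call was lost without any 1 of the arrays other than Tak1/Casp8 replicate 4 (limma adjusted p = 0.0533 to 0.116), with the arrays shifted to 1 median (0.0760), and with the brightest probe set alone (-0.28, 0.541). Acadl lies within 10 Mb of Casp8 on chromosome 1, where 8 of the 111 genes other than Casp8 (7.21%) were called.

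Etfb, a subunit of the flavoprotein that takes electrons from the acyl-CoA dehydrogenases, had 12.29, 12.40, 12.31 and 12.57 in the Tak1/Casp8 livers, against 12.60, 12.78, 12.84 and 12.71 in the Tak1/Rip3 livers, with no overlap (-0.34 ± 0.10 SE, limma adjusted p = 0.0718). Acaa2, the thiolase that releases acetyl-CoA, had 12.91, 13.15, 12.89 and 13.33 in the Tak1/Casp8 livers, against 13.34, 13.33, 13.37 and 13.38 in the Tak1/Rip3 livers (-0.29 ± 0.11 SE, limma adjusted p = 0.170), where the groups did not overlap but replicate 4 of Tak1/Casp8 came within 0.01 of the lowest Tak1/Rip3 array. Decr1, needed to oxidise unsaturated fatty acids, had 10.36, 10.87, 10.28 and 11.16 in the Tak1/Casp8 livers, against 10.87, 11.06, 11.17 and 11.28 in the Tak1/Rip3 livers (-0.43 ± 0.19 SE, limma adjusted p = 0.230). The groups overlapped in Decr1, with replicate 4 of Tak1/Casp8 above 2 Tak1/Rip3 arrays.

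The other 10 genes of this pathway did not pass either. They were the dehydrogenases Acadvl, Acadm and Acads for very long, medium and short chains, the trifunctional protein subunits Hadha and Hadhb, the short-chain enzymes Hadh and Echs1, the isomerase Eci1, and Etfa and Etfdh, which pass the electrons on. Their differences ran from -0.33 (Acads) to 0.10 (Echs1), with Echs1 alone above 0. Acadm averaged 12.33 ± 0.12 in the Tak1/Casp8 livers and 12.46 ± 0.03 in the Tak1/Rip3 livers (SD, n = 4 each), a difference of -0.13 ± 0.09 SE. Hadha averaged 11.38 ± 0.23 in the Tak1/Casp8 livers and 11.66 ± 0.19 in the Tak1/Rip3 livers, a difference of -0.28 ± 0.14 SE, where 3 Tak1/Casp8 arrays had 11.23 to 11.29 and replicate 4 had 11.72. Without replicate 4 Etfb and Acads passed (-0.40 and -0.49, limma adjusted p = 0.0383 and 0.0402), but with Tak1/Rip3 replicate 2 left out too neither did (-0.38 and -0.44, limma adjusted p = 0.0552 and 0.0655). Over the fits without 1 array Etfb ran from -0.40 to -0.30 and Acads from -0.49 to -0.23 (limma adjusted p up to 0.168 and 0.497).

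In peroxisomal oxidation 0 of 7 genes passed limma (1 lower at an unadjusted p under 0.05, and 0 in the unmoderated test, also at an unadjusted p), with a median difference of -0.05. Ehhadh, the bifunctional hydratase and dehydrogenase, had 11.08, 11.24, 10.91 and 11.87 in the Tak1/Casp8 livers, against 11.72, 11.33, 12.24 and 12.10 in the Tak1/Rip3 livers (-0.57 ± 0.24 SE, limma adjusted p = 0.197). Replicate 4 of Tak1/Casp8 was level with the Tak1/Rip3 arrays, and with that replicate and Tak1/Rip3 replicate 2 left out Ehhadh differed by -0.95 (limma adjusted p = 0.0106). For Ehhadh these arrays were the highest of Tak1/Casp8 and the lowest of Tak1/Rip3, so leaving them out widens the difference by itself. Over the fits without 1 array Ehhadh ran from -0.77 to -0.44, with a limma adjusted p of 0.0550 to 0.381.

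Acaa1a, a peroxisomal thiolase, had 9.39, 9.39, 9.33 and 10.00 in the Tak1/Casp8 livers, against 9.19, 9.16, 9.19 and 9.30 in the Tak1/Rip3 livers, the one gene of the set whose Tak1/Casp8 values all lay above the Tak1/Rip3 ones (0.32 ± 0.14 SE, limma adjusted p = 0.239). Its close copy Acaa1b, the thiolase that PPARalpha agonists induce, had 9.57, 9.91, 9.61 and 10.61 in the Tak1/Casp8 livers, against 9.99, 9.91, 9.99 and 10.12 in the Tak1/Rip3 livers (-0.07 ± 0.20 SE, limma adjusted p = 0.880). Catalase, Cat, which removes the hydrogen peroxide that peroxisomal oxidation makes, had 13.37, 13.41, 13.41 and 13.52 in the Tak1/Casp8 livers, against 13.54, 13.45, 13.52 and 13.52 in the Tak1/Rip3 livers (-0.08 ± 0.08 SE, limma adjusted p = 0.634). Hsd17b4, the second bifunctional enzyme, Scp2, the sterol carrier and thiolase, and Pex11a, which drives peroxisome division, differed by -0.04, -0.05 and 0.001, with 95% intervals of -0.34 to 0.25, -0.47 to 0.38 and -0.41 to 0.41.

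In uptake and activation 0 of 4 genes passed limma (1 lower and 1 higher at an unadjusted p under 0.05, and 0 in the unmoderated test, also at an unadjusted p). Fabp1, the abundant fatty acid binding protein of the hepatocyte and the gene with the spaced repeat in its promoter, had 11.69, 12.45, 11.55 and 13.04 in the Tak1/Casp8 livers, against 12.83, 12.87, 13.04 and 13.06 in the Tak1/Rip3 livers (-0.77 ± 0.28 SE, limma adjusted p = 0.144). Replicates 1 and 3 of Tak1/Casp8 were more than 1 log2 unit below every Tak1/Rip3 array, while replicate 4 lay within their range. Without replicate 4 it differed by -1.06 (limma adjusted p = 0.0130), and without Tak1/Rip3 replicate 2 as well by -1.08 (limma adjusted p = 0.0251). Leaving out other single arrays gave differences of up to -0.56, with a limma adjusted p of up to 0.291.

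Cd36, the fatty acid translocase, had 11.52, 11.11, 11.57 and 11.27 in the Tak1/Casp8 livers, against 10.98, 11.06, 11.10 and 11.20 in the Tak1/Rip3 livers (0.28 ± 0.12 SE, limma adjusted p = 0.202), the only member with a higher value at an unadjusted p under 0.05. Slc27a2, a fatty acid transporter and very long-chain acyl-CoA synthetase, had 12.68, 12.88, 12.64 and 13.01 in the Tak1/Casp8 livers, against 12.72, 12.85, 12.98 and 12.87 in the Tak1/Rip3 livers (-0.05 ± 0.11 SE, limma adjusted p = 0.838). Acsl1, the main long-chain acyl-CoA synthetase of liver, had 11.87, 12.03, 11.94 and 12.48 in the Tak1/Casp8 livers, against 12.19, 12.25, 12.57 and 12.28 in the Tak1/Rip3 livers (-0.24 ± 0.15 SE, limma adjusted p = 0.383). All 3 overlapped between the groups, with 95% intervals of 0.02 to 0.55, -0.30 to 0.19 and -0.57 to 0.08.

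The rest of the pathway was read from a further list of 99 genes, of which 91 were measured and 8 were not analysed here. This list too was chosen with earlier results of these data known. Of the 91, 11 fell and 6 rose in the Tak1/Casp8 livers (12.1% lower and 18.7% in all, against 4.05% and 6.69% of all genes), and their median difference was -0.02. Ppara itself had 10.51, 10.72, 10.18 and 11.07 in the Tak1/Casp8 livers, against 10.43, 10.45, 10.72 and 10.48 in the Tak1/Rip3 livers (0.10 ± 0.17 SE, limma adjusted p = 0.800). The fasting hormone Fgf21, another PPARalpha target, had 6.31, 6.62, 6.31 and 6.45 in the Tak1/Casp8 livers, against 6.08, 6.40, 6.64 and 6.31 in the Tak1/Rip3 livers (0.07 ± 0.13 SE, limma adjusted p = 0.828), near the lower quartile of the arrays. Neither passed, and the groups overlapped in both.

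Among 17 regulators 2 rose and 0 fell (0 lower at an unadjusted p under 0.05). Ppargc1a, a coactivator of PPARalpha that fasting induces, had 10.09, 9.62, 10.22 and 9.72 in the Tak1/Casp8 livers, against 8.83, 9.60, 9.04 and 8.94 in the Tak1/Rip3 livers and rose 1.75-fold (0.81 ± 0.19 SE, limma adjusted p = 0.0288), with all 15 probe sets higher. Acacb, whose product malonyl-CoA blocks Cpt1a, had 9.36, 9.66, 9.54 and 10.26 in the Tak1/Casp8 livers, against 9.02, 8.78, 9.00 and 8.89 in the Tak1/Rip3 livers and rose 1.72-fold (0.78 ± 0.17 SE, limma adjusted p = 0.0241). In both genes the groups did not overlap.

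In ketone body metabolism 3 of 5 measured genes fell. The monocarboxylate carrier Slc16a1, through which ketone bodies cross membranes, had 10.60, 10.86, 10.61 and 10.62 in the Tak1/Casp8 livers, against 11.49, 11.02, 11.89 and 11.96 in the Tak1/Rip3 livers and fell 1.89-fold (-0.92 ± 0.19 SE, limma adjusted p = 0.0170). The related carrier Slc16a6, which exports beta-hydroxybutyrate from liver as shown in zebrafish, had 8.43, 8.61, 8.46 and 8.23 in the Tak1/Casp8 livers, against 9.17, 8.65, 8.98 and 9.53 in the Tak1/Rip3 livers (-0.65 ± 0.17 SE, limma adjusted p = 0.0494). Oxct1, which starts ketone use in other tissues and is low in hepatocytes, fell by 0.41 on the log2 scale. The groups did not overlap in any of the 3.

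Among 18 measured peroxisomal genes 3 fell. Abcd2, a transporter of very long-chain acyl-CoA into peroxisomes, had 9.58, 9.11, 8.98 and 9.56 in the Tak1/Casp8 livers, against 10.17, 10.38, 10.91 and 10.48 in the Tak1/Rip3 livers and fell 2.26-fold (-1.18 ± 0.18 SE, limma adjusted p = 0.00519), with all 13 probe sets lower. The thioesterase Acot6, beside Acot1 to Acot4 in the genome, fell 1.63-fold and the peroxisome assembly factor Pex19 by 0.34 on the log2 scale. Of 18 other mitochondrial genes Acad9, which also helps to assemble complex I, fell by 0.34.

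Among 12 genes of uptake and activation, Fabp2, a fatty acid binding protein best known from intestine, had 8.45, 9.50, 8.08 and 10.03 in the Tak1/Casp8 livers, against 10.25, 10.62, 10.50 and 10.64 in the Tak1/Rip3 livers and fell 2.81-fold (-1.49 ± 0.36 SE, limma adjusted p = 0.0350). Dbi, the acyl-CoA binding protein, fell 1.71-fold (-0.78 ± 0.19 SE, limma adjusted p = 0.0347), but with its brightest probe set alone the difference was -0.04 (limma adjusted p = 0.837). The bile acid and very long-chain acyl-CoA ligase Slc27a5 rose 1.71-fold (0.77 ± 0.11 SE, limma adjusted p = 0.00281) and the synthetase Acsl3 1.75-fold (0.81 ± 0.16 SE, limma adjusted p = 0.0129).

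Lipid droplet and omega oxidation genes completed the list. Cidec, which fuses lipid droplets, had 7.20, 7.65, 7.15 and 8.07 in the Tak1/Casp8 livers, against 8.99, 8.17, 9.23 and 9.55 in the Tak1/Rip3 livers and fell 2.77-fold (-1.47 ± 0.29 SE, limma adjusted p = 0.0145). Plin2, the coat protein of hepatocyte lipid droplets, fell 1.48-fold (-0.57 ± 0.14 SE, limma adjusted p = 0.0375). The other 11 genes of lipid droplets and lipolysis did not pass. Cyp4b1 and Cyp4f15, of other Cyp4 subfamilies, rose 1.66-fold and 1.32-fold (0.73 ± 0.13 and 0.40 ± 0.10 SE), in the opposite direction to Cyp4a10, Cyp4a14 and Cyp4a31.

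**Figure D5:**
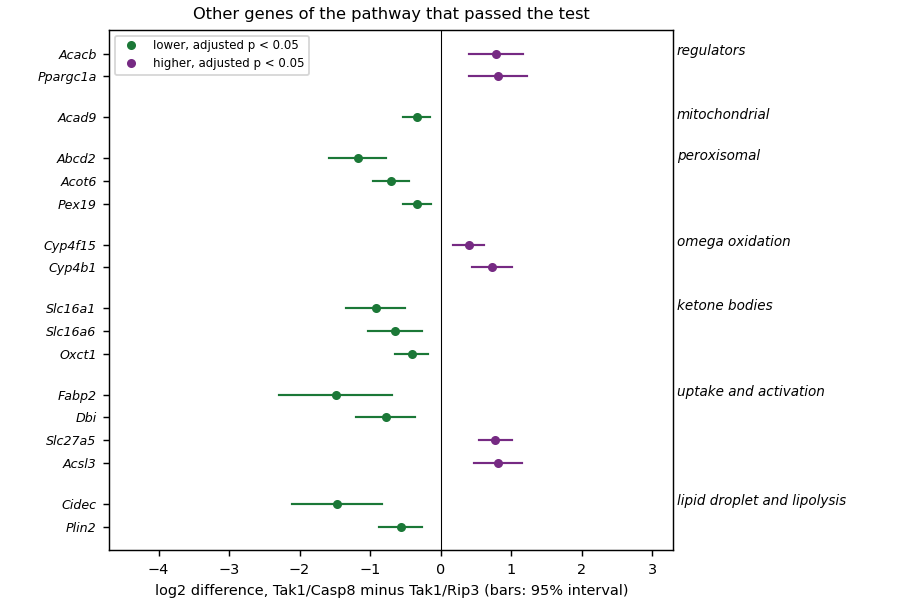
Log2 difference (Tak1/Casp8 minus Tak1/Rip3, x axis) with 95% intervals of the 17 genes of the further list that passed limma, grouped by function. The 11 that fell (green) reach from Fabp2 at -1.49 to Acad9 at -0.34, and the 6 that rose (purple) lie between 0.40 and 0.81.

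Of these 17 calls, those of Abcd2, Acot6, Cyp4b1, Slc16a1, Slc27a5, Acsl3 and Cidec held in each of the 8 fits without 1 array. Those of Cyp4f15 and Oxct1 were lost without any 1 array, those of Acad9 and Pex19 without any but Tak1/Casp8 replicate 4, and that of Slc16a6 without any but Tak1/Rip3 replicate 2. The Fabp2 call held only without Tak1/Casp8 replicate 2 or 4, that of Dbi without Tak1/Casp8 replicate 1 or 3, and that of Plin2 without Tak1/Casp8 replicate 4 or Tak1/Rip3 replicate 2. The Ppargc1a call held without Tak1/Casp8 replicate 2 or 4 or Tak1/Rip3 replicate 2, and that of Acacb without Tak1/Casp8 replicate 1, 3 or 4. The limma adjusted p of the lost calls reached at most 0.130 (Pex19). With the arrays shifted to 1 median the calls of Acad9, Pex19, Oxct1, Slc16a6 and Plin2 were lost as well (limma adjusted p = 0.0647 to 0.107). With the brightest probe set alone the calls of Ppargc1a (0.42), Acacb (0.61), Pex19 (-0.29), Acot6 (-0.46), Cyp4b1 (0.45), Cyp4f15 (0.14), Oxct1 (-0.34), Fabp2 (-1.40), Dbi (-0.04) and Plin2 (-0.49) were lost (limma adjusted p = 0.0544 to 0.837). The mean of probe sets lost the calls of Ppargc1a, Acad9, Oxct1, Dbi and Plin2, quantile normalisation those of Acad9, Oxct1 and Slc16a6, the brighter probe sets that of Oxct1, and trend and robust eBayes that of Fabp2. Without Tak1/Casp8 replicate 4 and Tak1/Rip3 replicate 2 those of Acad9, Cyp4f15, Oxct1 and Dbi were lost. In the unmoderated test 0 of the 17 passed, and 29 of the 91 genes had an unadjusted p under 0.05.

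Markers of other cells were read beside these results. Of 5 stellate cell markers, Lrat (-0.59) and Reln (-0.65) fell, and the mean level of the list was 9.90 to 10.25 in the Tak1/Casp8 livers and 10.32 to 10.49 in the Tak1/Rip3 livers. Of 3 measured B and plasma cell markers, Cd79a (-1.38) and Ms4a1 (-1.11) fell and Jchain (2.03) rose, and the list mean was 6.06 to 6.51 in the Tak1/Casp8 livers and 6.20 to 6.54 in the Tak1/Rip3 livers. The bile duct marker Spp1 rose (0.97) as 1 of 5, with a list mean of 8.71 to 9.49 in the Tak1/Casp8 livers and 9.01 to 9.27 in the Tak1/Rip3 livers. None of the markers of neutrophils, T and NK cells, endothelium, adipocytes, skeletal muscle or erythroid cells passed limma (1, 1, 2, 0, 0 and 0 at an unadjusted p under 0.05, and none after adjustment in the unmoderated test). Their part in the results was not tested.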

How the data were processed

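Liver RNA of each of 8 mice was hybridised to an Affymetrix mouse array, after amplification and biotin labelling, per the labels' protocols. The deposited values are log2 intensities per probe set after RMA (background subtraction, normalisation between arrays, summary of probes) per the submitters' processing notes, with no version given. RMA takes out most of any shift common to all genes. Of 223771 probe sets, 206316 had 1 gene symbol, 3734 several and 13721 none. The platform's old symbols were updated through a RefSeq table of GRCm38.p6 (2571 updated, 19456 of 19560 matched), which made Eci1 of Dci. Each gene's value is the median over its probe sets, with no filter on dim genes.

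Groups came from the genotype labels. The labels give no litter, scan or batch, so none of these can be separated from genotype here. Replicate numbers only name arrays. The limma p-values set each difference against the spread between these mice, moderated over all genes. limma 3.58.1 in R 4.3.3 fitted the group term over all 8 arrays (lmFit, eBayes, two-sided), with Benjamini-Hochberg adjustment over 19560 genes and calls under 0.05. The 4 arrays per group limit the precision. On simulated data of 19560 genes, limma recovered 29.9% of the 67 genes given a change of 0.5 (log2). It recovered 95.5% of the 67 given 1 and 100% of the 66 given 2. These shares describe the simulated data only. The share of real changes recovered on the 8 arrays was not tested. Figures used matplotlib 3.10.9 under Python 3.11.15.

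The 42 members, their function groups and the further lists were chosen with earlier results of these data known. All members were named. Of the further list the genes that passed were named, with Ppara and Fgf21. Per-array values were given for up to 4 genes of each function with the smallest p. Alternatives were quantile normalisation, arrays shifted to 1 median, the mean, brightest or brighter probe sets, leaving out genes dimmer than the 30th percentile, trend and robust eBayes, array weights, an unmoderated test per gene with unequal variances (called the unmoderated test), thresholds of 0.01 and 0.10, and omission of each array. Omission of the least correlated array of each group was added after seeing the data.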

Additional observations from a re-analysis of the deposited data

Results flagged for a closer look

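In 122 groups of 4 arrays (61 named genes), 8 had a highest array whose gap to the next, as a share of the group's range, was above Dixon's 95% critical value. Chance alone flags about 1 in 20 groups. In 4 of the 8 the array was Tak1/Casp8 replicate 4, which stood high for Cyp4a10 (0.934), Acaa1a (0.914), Hadha (0.872) and Acot1 (0.832). Cyp4a10 had 11.05, 10.96, 10.95 and 12.54 in the 4 Tak1/Casp8 livers, and Hadha 11.27, 11.29, 11.23 and 11.72.

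Tak1/Casp8 replicate 2 stood high for Acsl3 (0.920), Slc16a1 (0.889) and Etfa (0.836). Acsl3 had 9.49, 10.07, 9.44 and 9.46 there, Slc16a1 10.60, 10.86, 10.61 and 10.62 and Etfa 10.82, 11.03, 10.85 and 10.83. Tak1/Rip3 replicate 3 stood high for Ppara (0.831), with 10.43, 10.45, 10.72 and 10.48 in that group.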

How the results depend on the processing

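The 10 calls among the 42 genes became 7 to 13 under quantile normalisation, arrays shifted to 1 median, the mean, brightest or brighter probe sets, the filter on dim genes, trend and robust eBayes and a threshold of 0.10, and 0 genes rose under any of the settings run. They became 16 with array weights, 0 with the unmoderated test, 3 at a threshold of 0.01, 6 to 16 with 1 array left out, and 15 without both least correlated arrays. Over all genes the 1308 calls became 759 with the brightest probe sets, 115 with the unmoderated test, 406 at a threshold of 0.01, 2130 at 0.10, and 706 to 1347 with 1 array left out. Of these 1308 calls 60.6% were lower in the Tak1/Casp8 livers (792 lower, 516 higher), against 42.4% with the arrays shifted to 1 median (631 lower, 857 higher), a shift that set the median of all genes at 0.08 and that of the 42 members at -0.20. The 42 differences gave 756 values under the alternatives, of which 41 lost and 24 gained a call and 22 changed sign, all in genes that did not pass. Shifting the arrays gave 0.0192 for Slc27a2, 0.0273 for Hsd17b4 and 0.026 for Scp2. The mean of probe sets gave 0.0265 for Scp2 and -0.011 for Pex11a, the brightest gave 0.0118 for Slc25a20, 0.0291 for Cat and -0.0173 for Ppara, and array weights gave -0.0724 for Pex11a. With 1 array left out, the differences that changed sign ranged from -0.1231 to 0.0025 for Slc27a2, -0.1912 to 0.0104 for Etfdh, -0.1599 to 0.0204 for Hsd17b4, -0.3039 to 0.0443 for Acaa1b, -0.1888 to 0.0902 for Scp2, -0.1156 to 0.1806 for Pex11a, -0.0524 to 0.2437 for Ppara and -0.0284 to 0.1598 for Fgf21. Without both least correlated arrays Pex11a differed by -0.14, Vnn1 by -0.13 and Ppara by -0.0757. The cause of these changes was not tested. No paired analysis was possible because no label pairs mice across the groups. Arrays have no depth, and dim genes such as Acot1 are limited by signal over background.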

Other observations

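After the values of Cyp4a12a were seen, 7 other genes known to be higher in livers of male than of female mice were looked up: Cyp4a12b, Mup3, Mup21, Elovl3, Slco1a1, Cyp2d9 and Nudt7. In all 7 Tak1/Casp8 replicates 1 and 3 were the lowest of their group, as in Cyp4a12a. This order was not limited to genes chosen as male-biased, since Fabp1, Decr1 and Ppara had it too. Of the 42 members, Tak1/Casp8 replicate 3 was the lowest of its group in 27 and replicate 1 in 10 (26.1% and 28.3% of all genes). The share of all genes with both arrays lowest was not counted. In the Tak1/Rip3 group the order was not shared, since the lowest array was replicate 3 in 3 of the 7, replicate 2 in 2 and replicate 4 in 2. Cyp4a12b, a close copy, had 7.97, 11.64, 8.50 and 12.68 in the Tak1/Casp8 livers, against 11.24, 10.84, 8.52 and 10.01 in the Tak1/Rip3 livers. The urinary protein gene Mup3 had 9.89, 11.99, 9.22 and 12.17 in the Tak1/Casp8 livers, against 11.01, 11.57, 10.61 and 11.26 in the Tak1/Rip3 livers, and Mup genes have near-identical copies. The fatty acid elongase Elovl3 had 5.38, 6.61, 5.43 and 6.41 in the Tak1/Casp8 livers, against 6.44, 5.96, 5.68 and 6.07 in the Tak1/Rip3 livers. Nudt7, a peroxisomal coenzyme A hydrolase, had 10.32, 11.32, 10.42 and 11.99 in the Tak1/Casp8 livers, against 11.04, 11.51, 10.88 and 10.69 in the Tak1/Rip3 livers. Cyp2d9 had 10.69, 10.85, 10.69 and 11.44 in the Tak1/Casp8 livers, against 11.54, 11.20, 11.86 and 11.50 in the Tak1/Rip3 livers. Between the groups 0 of the 7 passed limma, with 1, Cyp2d9, at an unadjusted p under 0.05 (-0.61 ± 0.19 SE, limma adjusted p = 0.0828). The limma adjusted p of the other 6 ran from 0.262 (Slco1a1, -0.75) to 0.989 (Cyp4a12b, 0.04).

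The same replicates of Tak1/Casp8 were the highest of their group in all 5 bile duct markers. They were also the highest in the macrophage markers Cd68, Adgre1, Csf1r and Marco, but not in Clec4f or Timd4. Among stellate cell markers they were the highest in Reln and Dcn, but not in Lrat, Des or Rgs5. The share of all genes with this order was not counted. In the bile duct markers the group difference was above 0 only in Sox9 and Spp1. It was -1.05 in Epcam, -0.30 in Krt7 and -0.30 in Krt19 (limma adjusted p = 0.0651, 0.221 and 0.400, the first 2 at an unadjusted p under 0.05). Sox9 had 10.12, 9.21, 10.06 and 9.32 in the Tak1/Casp8 livers, against 9.52, 9.28, 9.23 and 9.51 in the Tak1/Rip3 livers, and Spp1 had 13.49, 13.00, 13.46 and 12.73 in the Tak1/Casp8 livers, against 12.57, 11.87, 12.09 and 12.27 in the Tak1/Rip3 livers.

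Acot3 has 7 probe sets that did not move together. Probe sets 1 to 3, counted in the order of the array's identifiers, differed by -0.09 to -0.04, and probe sets 4 to 7 by -2.98 to -2.35. In Tak1/Casp8 replicate 4 the probe sets 4, 5 and 7 had 9.07, 9.49 and 8.57, and the probe set 6 had 2.58, while the other 7 arrays had 6.42 to 9.21 at probe set 6. The gene value of Acot3, a median over the 7, thus summarises parts that differ.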
